A study of Mus musculus with 16 samples.

Results

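The 10 genes described here are markers of ductal and other epithelial cells, chosen as possible signs of epithelial or tumor cell RNA in sorted macrophages: Krt7, Krt8, Krt18, Krt19, Cdh1, Epcam, Muc1, Rab25, Sox9 and Dmbt1. They were found by gene name among the probes of the array, and the brightest probe stood for a gene. All 10 were on the array and 9 of them passed the filter on signal, of 24278 genes tested in all. Sox9 did not pass. Macrophages had been sorted by flow cytometry into lysis buffer, and their RNA was amplified and hybridised to 16 single-color Agilent mouse arrays. The groups were tumor YFP+ (5 arrays), tumor YFP- (5), normal pancreas YFP+ (3) and normal pancreas YFP- (3). Per the labels all mice were female, of strain C57/B6 and 8 to 10 weeks old, the protocol names implanted tumors, and genotype was not provided for any sample. The series text names wild-type, KPC and FLT3-CRE/LSL-YFP mice without saying which gave which array. In the last of these a Flt3-driven Cre switches on YFP, so that YFP marks cells whose ancestors passed through a Flt3-expressing blood progenitor. The labels do not say whether arrays are separate animals, so p-values measure the spread between these samples.

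Epithelial cells hold intermediate filaments of paired keratins, in which a type II chain (Krt7 or Krt8) joins a type I chain (Krt18 or Krt19), and they are joined by E-cadherin (Cdh1) and by Epcam. In the pancreas Krt7, Krt19 and Sox9 mark ducts and Muc1 lies on the luminal face of ducts and acini. Pancreatic ductal adenocarcinoma cells usually keep these markers. Rab25 is a small GTPase of epithelial recycling endosomes, and Dmbt1 is a secreted scavenger receptor glycoprotein of mucosal and glandular epithelia. Macrophages are not defined by any of these genes, although E-cadherin is also made by some macrophages and Epcam and E-cadherin by some dendritic cells.

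The array reads each gene through a probe of 60 bases. The probes of Krt7, Krt19, Epcam and Rab25 are shown 5′ to 3′ in lower case, because these 4 genes passed the test in different comparisons or in none.
Krt7 probe: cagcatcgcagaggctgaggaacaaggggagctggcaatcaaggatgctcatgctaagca
Krt19 probe: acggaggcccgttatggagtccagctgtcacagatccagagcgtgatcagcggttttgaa
Epcam probe: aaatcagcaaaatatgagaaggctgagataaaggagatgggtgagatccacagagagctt
Rab25 probe: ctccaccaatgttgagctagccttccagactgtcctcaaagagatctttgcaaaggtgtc
On build mm9, as the files give it, the Krt7 probe lies on chromosome 15 at 101253718 to 101253777 and the Krt19 probe on chromosome 11 at 100002392 to 100002451. No position was given for the probes of Epcam and Rab25. The Krt18 probe lies on chromosome 15 at 101862341 to 101862400, the Muc1 probe on chromosome 3 at 89034965 to 89035024, and the Cdh1 probe on chromosome 8 at 109193812 to 109193871. Dmbt1 was read on chromosome 7 at 138265063 to 138265122 and Sox9 on chromosome 11 at 112648809 to 112648868. Krt8 alone had 2 probes, and the brighter, on chromosome 15 at 101827138 to 101827197, was used. The files do not say which part of each transcript a probe reads.

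Krt8 and Krt18 are next to each other among the protein-coding genes of chromosome 15 in the RefSeq table, and they are also the genes of a keratin pair. The 250 bases before the start of Krt8, Krt18 and Muc1, which were lower together in tumor YFP+ cells, and of Rab25, which was not, are shown from RefSeq on build GRCm38.p6, 5′ to 3′ on the strand of the gene. Capitals mark matches, found on both strands, to any of 4 motifs that were searched after the expression values were known. The E-box was searched as CACCTG and the GC box as GGGCGG, while the TATA box was searched as TATAAA. The AP-1 motif was searched as TGANTCA, where N is any base.
Krt8 (chr15:102004343-102004592, minus strand): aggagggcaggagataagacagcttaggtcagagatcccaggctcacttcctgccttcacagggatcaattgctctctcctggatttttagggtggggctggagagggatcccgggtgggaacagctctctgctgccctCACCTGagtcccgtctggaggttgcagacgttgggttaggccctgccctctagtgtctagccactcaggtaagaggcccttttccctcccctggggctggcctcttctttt
Krt18 (chr15:102027966-102028215, plus strand): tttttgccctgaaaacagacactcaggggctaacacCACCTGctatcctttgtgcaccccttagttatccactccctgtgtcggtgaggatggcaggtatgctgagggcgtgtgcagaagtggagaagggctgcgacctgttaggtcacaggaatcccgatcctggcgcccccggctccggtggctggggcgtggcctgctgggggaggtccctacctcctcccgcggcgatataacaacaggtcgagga
Muc1 (chr3:89228806-89229055, plus strand): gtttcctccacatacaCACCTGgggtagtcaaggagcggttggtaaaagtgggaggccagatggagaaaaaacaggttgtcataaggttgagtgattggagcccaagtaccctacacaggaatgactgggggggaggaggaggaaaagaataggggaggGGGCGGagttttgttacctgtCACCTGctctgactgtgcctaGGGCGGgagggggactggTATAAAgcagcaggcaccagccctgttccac
Rab25 (chr3:88548280-88548529, minus strand): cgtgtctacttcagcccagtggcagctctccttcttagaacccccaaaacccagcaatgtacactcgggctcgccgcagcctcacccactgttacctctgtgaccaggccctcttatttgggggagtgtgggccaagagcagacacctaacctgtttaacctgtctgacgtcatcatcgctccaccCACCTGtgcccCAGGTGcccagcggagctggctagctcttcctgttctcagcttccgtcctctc
Windows were matched for 6 of the 10 genes, these 4 with Krt7 and Epcam, and each of the 6 held at least 1 E-box match, against 17.2% of all 32851 windows. Muc1 held 2 E-box, 2 GC box and 1 TATA box matches, Rab25 held 2 E-box matches and Krt8 and Krt18 held 1 each. Krt7 held 4 GC box matches and Epcam 1. A GC box was found in 32.7% of all windows, a TATA box in 12.4% and an AP-1 motif in 6.75%. The E-box match was present whether a gene was lower in tumor YFP+ cells or not, and these counts are a description of letters only.

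Levels are log2 signals relative to the 75th percentile of the array, so that 0 is the signal at that percentile. The 4 groups were compared in a single limma fit of the 16 arrays, p-values were adjusted across the 24278 genes by the Benjamini-Hochberg method, and an adjusted p below 0.05 was called. That percentile lay between 2175 and 3409 intensity units, 64.9% to 75.4% of the spots of an array were well above background, and the number of arrays limits the precision. All 14 macrophage marker genes of the list used were well above background on every array, and tumor YFP+ cells had a mean log2 level of 4.28 ± 0.21 (SD, n = 5) over that list. The same mean was 4.31 ± 0.22 (n = 5) for tumor YFP-, 4.29 ± 0.22 (n = 3) for normal YFP+ and 4.39 ± 0.51 (n = 3) for normal YFP- cells. Over the 9 epithelial markers the mean log2 level was highest in tumor YFP- cells, at 0.10 ± 0.20 (n = 5). Tumor YFP+ cells had -1.53 ± 0.49 (n = 5), normal YFP- cells -1.47 ± 0.28 (n = 3) and normal YFP+ cells, the lowest, -2.37 ± 0.16 (n = 3).

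**Figure D1:**
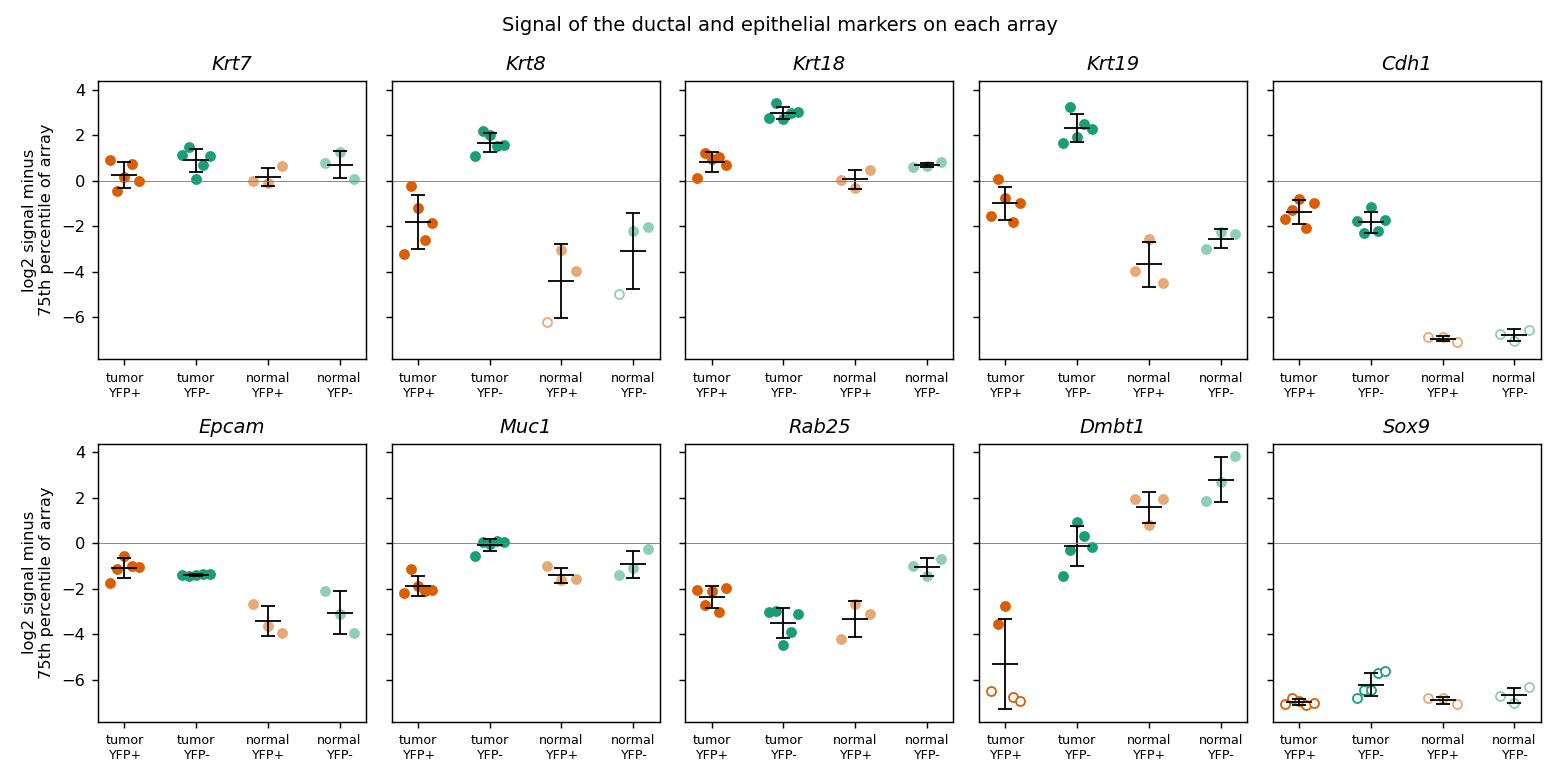
Log2 signal minus the array's 75th percentile (vertical axis) for the 10 markers, by group (horizontal axis); each point is 1 array, open where the probe was not well above background, and bars are the mean ± SD. Krt8, Krt18, Krt19 and Muc1 were higher on all 5 tumor YFP- arrays than on any tumor YFP+ array, while Cdh1 and Epcam overlapped between these groups.

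The first comparison was YFP+ against YFP- macrophages of the tumor. Of the 9 markers tested, 5 fell in YFP+ cells (Krt8, Krt18, Krt19, Muc1 and Dmbt1), against 1.62% of all genes, and 0 rose, against 0.766% of all genes. The groups did not overlap for the same 5 genes, against 2.77% of all genes with every YFP+ array below every YFP- array. The other 4 (Krt7, Cdh1, Epcam and Rab25) did not pass the test, and at an unadjusted p below 0.05 there were 6 markers, the sixth being Rab25, and 2503 of all genes. The median log2 difference over the 9 markers was -1.79, beside 0.01 over all genes. In sorted bulk RNA, fewer cells of a type and less RNA per cell cannot be told apart.

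Krt19, the type I keratin of ducts, had log2 levels of 1.67, 3.23, 1.92, 2.49 and 2.28 on the tumor YFP- arrays with title numbers 23547, 23548, 23550, 23551 and 23677. On the YFP+ arrays with the same numbers its levels were -1.53, 0.06, -0.76, -1.80 and -0.98. Every YFP- array was above the 75th percentile of its array, and only 1 YFP+ array was. The log2 difference was -3.32 ± 0.41 (SE), a 9.98-fold lower signal (adjusted p = 5.05e-04).

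Krt18, the type I partner of Krt8 in simple epithelia, had log2 levels on the tumor YFP- arrays of 2.75, 3.42, 2.71, 2.97 and 2.99 in the same order. Its YFP+ levels were 0.13, 1.23, 0.96, 1.06 and 0.67. The log2 difference was -2.16 ± 0.22 (SE), 4.47-fold lower (adjusted p = 9.95e-05). No YFP+ array came within 1 log2 unit of a YFP- array.

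Krt8, the type II partner, had log2 levels of 1.08, 2.18, 2.01, 1.54 and 1.55 in YFP- cells and of -3.23, -0.22, -1.19, -2.62 and -1.88 in YFP+ cells. The YFP+ arrays spread more widely (SD 1.18, n = 5) than the YFP- arrays (SD 0.43, n = 5), with number 23548 highest and number 23547 lowest. The log2 difference was -3.50 ± 0.70 (SE), 11.3-fold lower (adjusted p = 0.0122), and the second Krt8 probe gave -3.08 ± 0.44 (adjusted p = 0.00124).

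Muc1, the cell surface mucin, had log2 levels of -0.55, 0.05, -0.03, 0.09 and 0.06 in tumor YFP- cells and of -2.20, -1.13, -1.88, -2.09 and -2.03 in YFP+ cells. The YFP- array of number 23547 lay below the other 4, which read from -0.03 to 0.09. The log2 difference was -1.79 ± 0.25 (SE), 3.46-fold lower (adjusted p = 0.00106).

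Dmbt1 had log2 levels of -1.44, -0.29, 0.94, 0.32 and -0.18 in tumor YFP- cells. In YFP+ cells it was well above background on 2 of 5 arrays, at -3.55 (number 23548) and -2.74 (number 23550), and the other 3 arrays read -6.47, -6.76 and -6.93. The log2 difference was -5.16 ± 0.78 (SE) (adjusted p = 0.00177), and its size rests on readings below background: with normexp background correction it was -3.15.

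Krt7, the type II keratin of ducts, did not pass the test, with mean log2 levels of 0.26 ± 0.56 (SD, n = 5) in YFP+ and 0.89 ± 0.52 (n = 5) in YFP- cells (log2 difference -0.63 ± 0.32 SE, adjusted p = 0.554). It was well above background on all 16 arrays. Cdh1, which encodes E-cadherin, had levels of -1.70, -1.29, -0.80, -2.09 and -0.97 in YFP+ and of -1.76, -2.32, -1.16, -2.19 and -1.71 in YFP- cells, and the ranges overlapped (0.46 ± 0.26 SE, adjusted p = 0.626). Epcam lay at -1.08 ± 0.43 (SD, n = 5) in YFP+ and -1.39 ± 0.03 (n = 5) in YFP- cells (0.30 ± 0.32 SE, adjusted p = 0.848). Its 5 YFP- arrays were the tightest of any marker in any group of 5. Rab25 was the one marker with a higher mean in YFP+ cells by over 1 log2 unit, at -2.36 ± 0.48 (SD, n = 5) against -3.48 ± 0.65 (n = 5), and it did not pass (1.12 ± 0.36 SE, adjusted p = 0.167). Differences between genes were not tested.

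**Figure D2:**
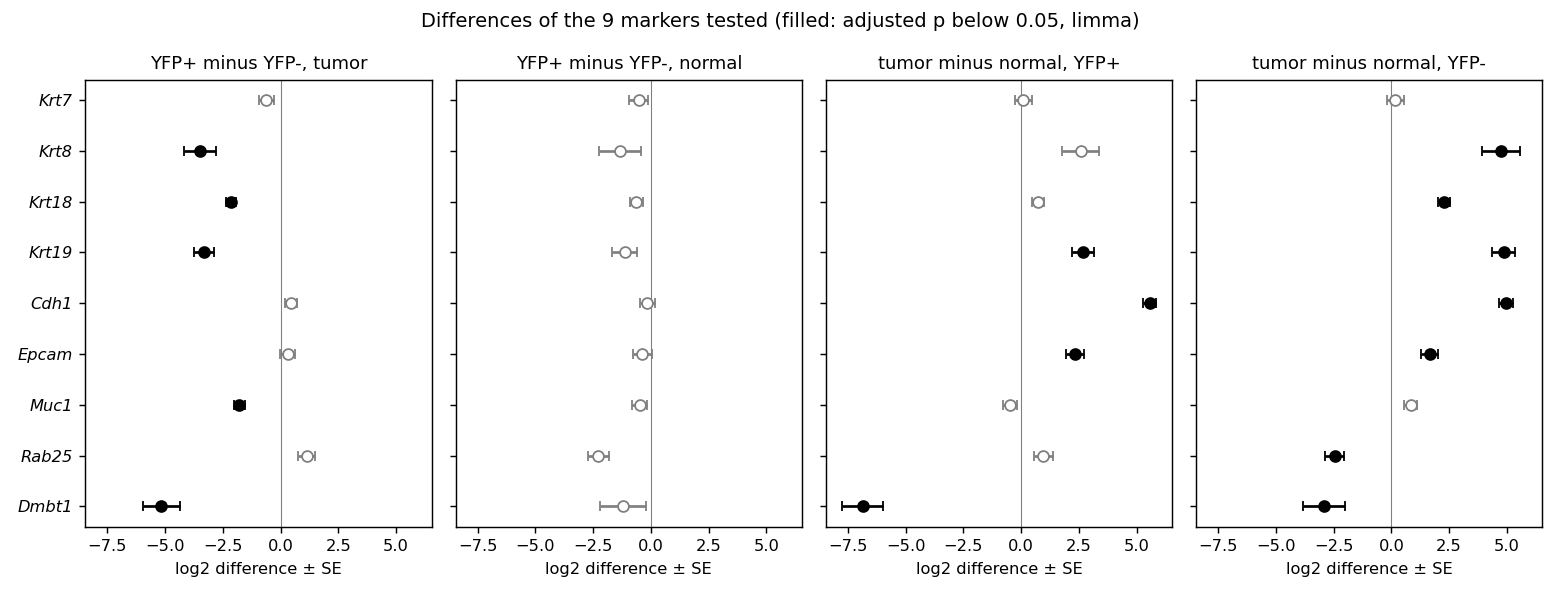
Log2 difference ± SE (horizontal axis) of the 9 markers tested (vertical axis) in 4 comparisons; filled points have an adjusted p below 0.05 in the limma fit. In tumor, YFP+ cells were lower for Krt8, Krt18, Krt19, Muc1 and Dmbt1, in normal pancreas no point is filled, and Cdh1 and Epcam were higher in tumor in both populations, Cdh1 against normal readings not well above background.

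Sox9, a transcription factor of pancreatic ducts and progenitors, was not well above background on any of the 16 arrays. Its 10 spots averaged to readings of -7.09 to -5.62 on the log2 scale, and no difference was taken from them.

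Each of the 4 slides held 4 arrays, with both tumor populations among them. Within slides 1 to 4 the log2 difference of Krt19 was -2.14, -4.21, -3.03 and -3.33, that of Krt18 was -1.61, -2.75, -2.03 and -2.16, and that of Krt8 was -1.99, -4.06, -2.74 and -4.01. Muc1 gave -1.16, -2.08, -1.94 and -1.60. Dmbt1 gave -4.18 and -2.57 on slides 1 and 3, and on slides 2 and 4 its YFP+ readings were not well above background, so no size is given there. These 5 genes read lower in YFP+ cells on each of the 4 slides, which follows from their groups not overlapping. Rab25 was higher in YFP+ cells on each slide, by 1.44, 1.03, 1.02 and 0.48.

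Other epithelial genes were taken from a list of 59 (keratins, junction proteins, epithelial regulators, ductal genes, and mucins and tumor genes), of which 56 were tested. In tumor YFP+ cells 14 of the 56 fell, against 1.62% of all genes, and 0 rose, against 0.766%, with a median log2 difference of -0.60. The largest were Bicc1, a ductal RNA-binding protein gene (-4.27 ± 0.68 SE, adjusted p = 0.00260), the tight junction genes Cldn3 (-4.26 ± 0.75, adjusted p = 0.00522) and Cgn (-3.60 ± 0.68, adjusted p = 0.00866), and the water channel gene Aqp1 (-3.77 ± 0.78, adjusted p = 0.0156). In YFP+ cells Bicc1, Cldn3 and Cgn were well above background on 1 of 5 arrays and Aqp1 on 2 of 5. The sizes of these differences therefore rest partly on readings not well above background. By role, the count that fell was 1 of 5 keratins (Krt20), 4 of 12 junction genes, 3 of 14 epithelial regulators and surface genes, 2 of 10 ductal genes and 4 of 15 mucins and tumor genes. The remaining 42 did not pass, among them Krt5, Krt14, Krt17, Cldn7, Ocln, Grhl2 and Spint1.

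**Figure D3:**
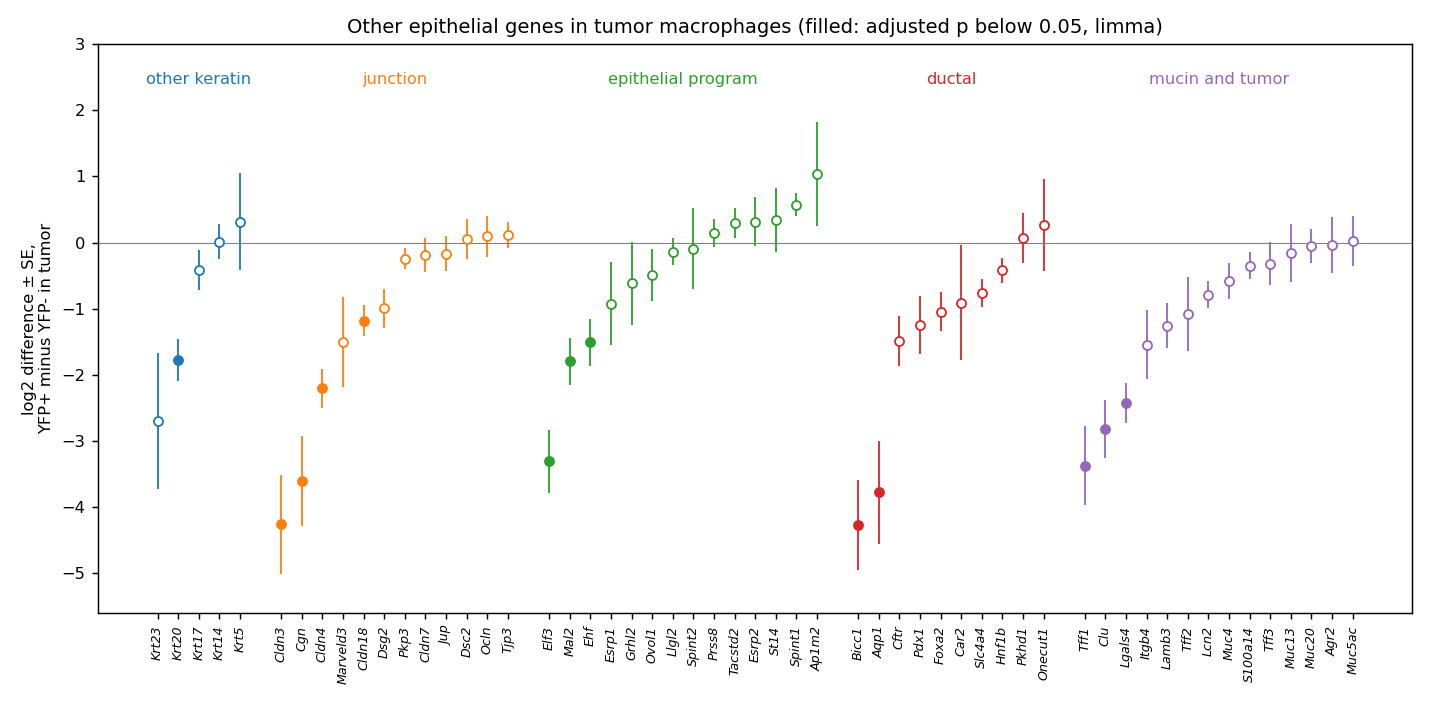
Log2 difference ± SE between YFP+ and YFP- tumor macrophages (vertical axis) for the other epithelial genes (horizontal axis), without 1 that is not reported here, grouped by role; filled points have an adjusted p below 0.05 in the limma fit. The filled points all lie below 0, and the other points spread on both sides of 0.

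Marker lists of other cell types moved with the tumor YFP difference, and their part in the result was not tested. Over all genes 1.62% were lower and 0.766% higher in this comparison. Of 16 fibroblast genes 11 were lower in YFP+ cells (median log2 difference -3.46), led by Lum (at least 10.6-fold, the bound that the lowest reading well above background allows, adjusted p = 5.46e-04), Col6a1 (-5.56), Dcn (-5.14) and Pdgfrb (-4.66). The mean log2 level of the fibroblast list ranged from -2.91 to -2.04 on YFP+ arrays and from 0.45 to 1.04 on YFP- arrays, and Lum, Pdgfra and Rgs5 were not well above background on any YFP+ array. Of 9 mast cell genes 6 were lower (median -3.36), led by Fcer1a (-5.75), Cpa3 (-4.96), Cma1 (-3.55) and Mcpt4 (-3.36), with list levels of -3.64 to -1.34 against -0.11 to 2.34. Of 8 mesothelial genes 5 were lower (median -2.74), of which 3 are Krt8, Krt18 and Krt19 themselves and the other two are Wt1 (-4.12) and Msln (-3.75). Mesothelial list levels were -1.66 to -1.08 against 0.69 to 1.23. Mesothelial cells make the same simple keratins as ducts, so these lists are not separate evidence. Of the genes given a size, Pdgfrb and Fcer1a were well above background on 1 of 5 tumor YFP+ arrays. Col6a1 and Wt1 were on 2 of 5 and Cpa3 on 3 of 5. The sizes for these genes therefore rest partly on readings not well above background.

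Of 21 acinar genes 5 fell in tumor YFP+ cells, led by Amy2a5 (-2.26), Ctrb1 (-2.06) and Prss2 (-2.0), and 1 rose, Bhlha15 (3.74), a transcription factor gene that plasma cells also use. Bhlha15 was well above background on 1 of 5 tumor YFP- arrays, so its size rests partly on readings that were not. Of 12 B and plasma cell genes 4 rose and 0 fell, led by Tnfrsf17 (2.80), Mzb1 (2.76), Pou2af1 (2.04) and Blnk (0.82), with list levels of 0.69 to 1.76 in YFP+ and -0.59 to 0.50 in YFP- cells. Tnfrsf17 was well above background on 3 of 5 tumor YFP- arrays. The dendritic list had 1 of 12 higher (Irf4, 1.18) and the neutrophil list 1 of 11 lower (Ltf, -1.30). Beside these counts, 0.766% of all genes were higher and 1.62% lower. By limma 0 of 14 macrophage, 0 of 12 endothelial, 0 of 10 islet and 0 of 11 T and NK cell genes passed, and at an unadjusted p below 0.05 the counts were 0, 1, 0 and 0.

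**Figure D4:**
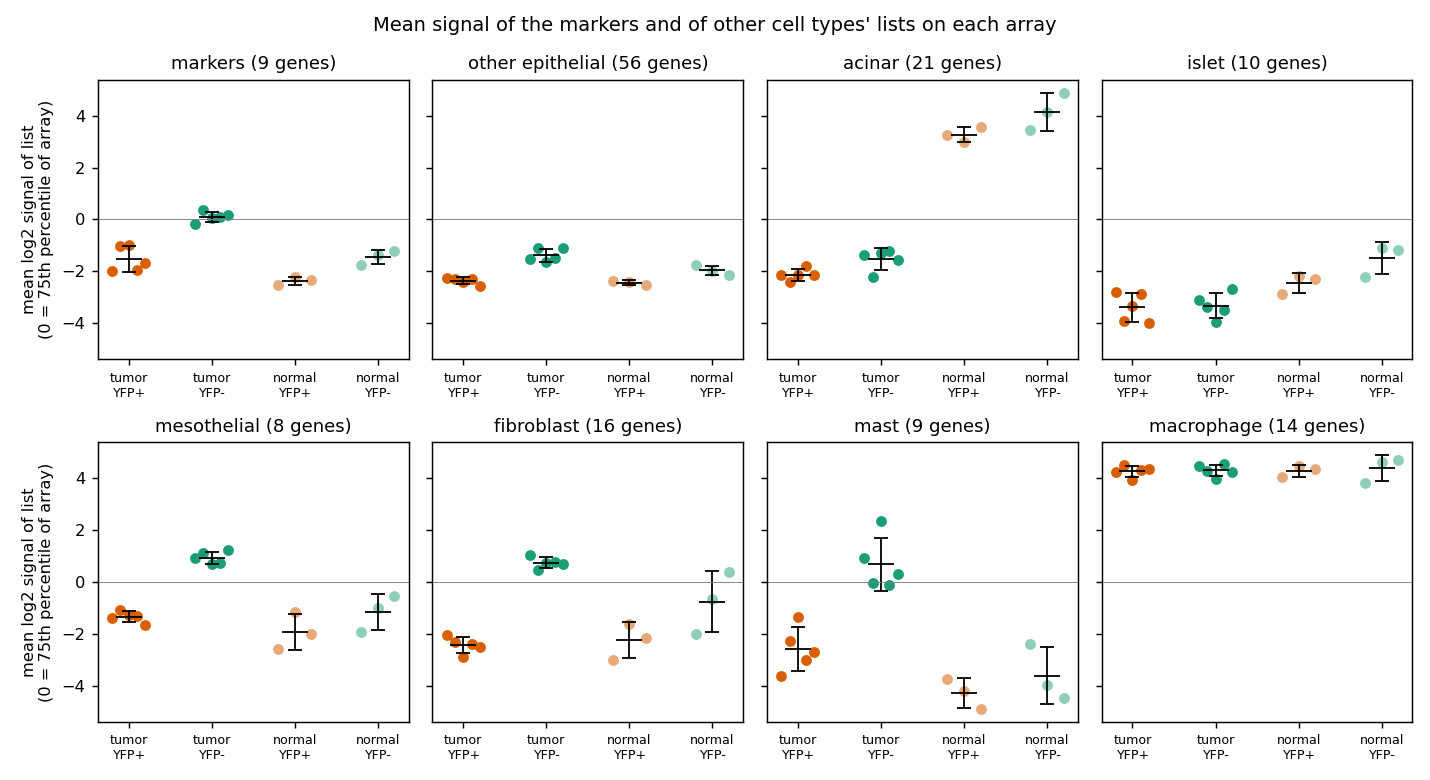
Mean log2 signal relative to the array's 75th percentile (vertical axis) over the genes of the markers and of 7 other lists, by group (horizontal axis); points are arrays and bars the mean ± SD. Marker, other epithelial, mesothelial, fibroblast and mast levels were higher on each tumor YFP- array than on any tumor YFP+ array. Acinar levels were higher in normal pancreas, and macrophage levels were alike in range in all groups.

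In normal pancreas, 0 of the 9 markers passed the test between YFP+ and YFP- macrophages (limma), against 0.0206% of all genes. At an unadjusted p below 0.05 there were 2 markers, Krt18 and Rab25, and 1854 of all genes. For the same 2 markers every YFP+ array lay below every YFP- array, against 6.84% of all genes. Rab25 had log2 levels of -4.21, -2.66 and -3.10 in YFP+ and of -1.0, -1.45 and -0.67 in YFP- cells (title numbers 23912, 23916 and 23917), a log2 difference of -2.28 ± 0.46 (SE, adjusted p = 0.108). Krt18 had levels of 0.05, -0.34 and 0.48 in YFP+ and of 0.60, 0.66 and 0.80 in YFP- cells (-0.63 ± 0.28 SE, adjusted p = 0.634). All 9 differences were below 0 and their median was -0.63, beside -0.10 over all genes. Krt19 (-1.14 ± 0.54 SE, adjusted p = 0.656) and Krt8 (-1.33 ± 0.90, adjusted p = 0.800) were read with wide errors, Krt8 above background on 2 of 3 arrays in each population. Of the 56 other epithelial genes 0 passed by limma, and 6 had an unadjusted p below 0.05. Within the 2 slides that held both populations Rab25 gave -3.54 and -2.10 and Krt18 gave -0.76 and -0.12.

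The tumor and normal pancreas were then compared within YFP- macrophages. Of the 9 markers 5 rose in tumor (Krt8, Krt18, Krt19, Cdh1 and Epcam), against 8.03% of all genes, and 2 fell (Rab25 and Dmbt1), against 7.74%. Their median log2 difference was 1.66, beside -0.16 over all genes. This comparison shares the tumor YFP- arrays with the first, so that both read the same high keratin levels.

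Krt19 was at -3.01, -2.25 and -2.36 in normal YFP- cells, all below every tumor YFP- array (4.86 ± 0.48 SE, 29.0-fold, adjusted p = 9.50e-06). Krt8 lay at -5.00, which was not well above background, -2.19 and -2.05 (4.75 ± 0.80, 26.9-fold, adjusted p = 9.75e-04). Krt18 rose by 2.28 ± 0.25 (4.86-fold, adjusted p = 3.03e-05). Krt8, Krt18 and Krt19 were therefore 3 of the 5 markers that rose. The remaining keratin marker, Krt7, did not pass (0.18 ± 0.37, adjusted p = 0.767).

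Cdh1 was not well above background on any of the 6 normal arrays, where it read -7.07 to -6.56, and was well above background on all 10 tumor arrays. In YFP- cells it was at least 6.93-fold higher in tumor (adjusted p = 9.39e-08). Epcam rose by 1.66 ± 0.37 (3.15-fold, adjusted p = 0.00727), from -2.07, -3.12 and -3.94 in normal YFP- cells. Muc1 had a difference of 0.83 ± 0.29 (adjusted p = 0.0660), and its ranges overlapped. It passed in 4 of 19 alternatives: without the tumor YFP- array 23547 (0.0456), without the normal YFP- array 23917 (0.0206), with normexp background correction (0.0377) and with array weights (0.00593).

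Rab25 went the other way: normal YFP- cells had the highest level of any group, and tumor YFP- cells read -3.01, -2.97, -4.45, -3.87 and -3.11 (-2.44 ± 0.41 SE, 5.43-fold lower, adjusted p = 9.30e-04). Over 19 alternatives this difference ranged from -2.64 to -1.37. Dmbt1 was at 1.85, 2.69 and 3.82 in normal YFP- cells and fell in tumor (-2.92 ± 0.90, 7.56-fold lower, adjusted p = 0.0409). Its call was lost (adjusted p from 0.0533 to 0.148) when any of tumor YFP- arrays 23547, 23548, 23551 and 23677 or normal YFP- arrays 23916 and 23917 was left out. Acinar genes were higher in normal pancreas beside these: 19 of 21 were lower in tumor YFP- cells (median log2 difference -6.30), with list levels of -2.23 to -1.21 in tumor and 3.44 to 4.89 in normal YFP- cells, among them Cela2a (-8.60), Cela1 (-7.97) and Pnliprp1 (-7.77). All 21 acinar genes were well above background on every normal YFP- array. The part of acinar RNA in the levels of Rab25 and Dmbt1 was not tested.

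Of the 56 other epithelial genes 14 rose and 4 fell in tumor YFP- cells, beside 8.03% and 7.74% of all genes, with a median log2 difference of 0.20. Tff1, a trefoil peptide gene, was at least 14.9-fold higher (adjusted p = 5.04e-05) and Grhl2, an epithelial regulator, rose by 4.52 ± 0.73 (adjusted p = 6.57e-04), while Tff2 fell by 5.12 on the log2 scale (adjusted p = 7.81e-05). Cgn rose by 3.61 ± 0.79 (adjusted p = 0.00597). In normal YFP- cells Cgn was well above background on 1 of 3 arrays and Grhl2 on 2 of 3. The sizes for Cgn and Grhl2 therefore rest partly on readings not well above background. Fibroblast (4 of 16), mast (8 of 9), mesothelial (4 of 8), neutrophil (7 of 11) and endothelial (1 of 12) genes rose in the same comparison and none fell. The mesothelial genes that rose include the markers Krt8, Krt18 and Krt19. Other lists were mixed or fell: B and plasma had 5 higher and 2 lower of 12, and dendritic 2 and 2 of 12. T and NK had 1 higher and 2 lower of 11, macrophage 1 and 1 of 14, and islet 0 and 4 of 10. Within slides 2, 3 and 4, which held both groups, Krt19 gave 5.59, 5.28 and 3.92 and Epcam gave 2.51, 0.71 and 1.73. Cdh1 read higher in tumor on each of these slides, which follows from its groups not overlapping. No size is given because its normal readings were not well above background.

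In YFP+ macrophages 3 of the 9 markers rose in tumor (Cdh1, Epcam and Krt19), against 6.03% of all genes, and 1 fell (Dmbt1), against 6.06%. The median log2 difference was 0.96, beside -0.04 over all genes. Cdh1 was at least 10.3-fold higher (adjusted p = 3.13e-08). Epcam lay at -2.66, -3.63 and -3.95 in normal YFP+ cells and rose by 2.33 ± 0.37 (SE, 5.03-fold, adjusted p = 7.34e-04). Krt19 lay at -3.96, -2.58 and -4.49 and rose by 2.68 ± 0.48 (6.39-fold, adjusted p = 0.00168). Each of these 3 genes was higher on all 5 tumor YFP+ arrays than on any of the 3 normal YFP+ arrays. The share of all genes without overlap was not counted here, so this adds nothing to the calls.

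Krt8 had a difference of 2.58 ± 0.80 that did not pass (adjusted p = 0.0505). Of its 3 normal YFP+ readings, the lowest (array 23912, -6.20) was not well above background, and without that array the difference was 1.68 (adjusted p = 0.266). With normexp background correction it was 1.30 (adjusted p = 0.0935). The adjusted p ranged from 0.00191 to 0.266 over 19 alternatives, of which 8 passed, among them the fits without normal YFP+ array 23916 (0.0345) and without tumor YFP+ array 23547 (0.0325). The lowest adjusted p came from the second probe, which was not well above background on any normal YFP+ array. No size is given for that probe, and the mean of the probes, which also passed (0.00371), includes it. Krt18 had 0.75 ± 0.25 (adjusted p = 0.0742) and passed in 2 of 19 alternatives, without tumor YFP+ array 23547 (0.0182) and with array weights (0.0399). Muc1 (-0.48 ± 0.29, adjusted p = 0.363), Krt7 (0.09 ± 0.37, adjusted p = 0.936) and Rab25 (0.96 ± 0.41, adjusted p = 0.162) did not pass.

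Dmbt1 was at 1.95, 0.81 and 1.97 in normal YFP+ cells and fell in tumor (-6.87 ± 0.90, adjusted p = 1.58e-04; -4.73 with normexp background correction). Of the acinar genes 18 of 21 were lower and 1 was higher in the same comparison (median log2 difference -6.62), with list levels of -2.43 to -1.80 in tumor and 2.99 to 3.55 in normal YFP+ cells. Their part in the Dmbt1 value was not tested. Of the 56 other epithelial genes 5 rose and 3 fell, beside 6.03% and 6.06% of all genes. Those that rose were led by Grhl2 (3.48 ± 0.73, adjusted p = 0.00501) and Tff1 (at least 1.56-fold, adjusted p = 0.0196), and those that fell by Tff2 (-5.01 ± 0.64, adjusted p = 1.20e-04) and Ehf (-2.13 ± 0.41, adjusted p = 0.00279), with a median of 0.06. Grhl2 was well above background on 2 of 3 normal YFP+ arrays. Within slides 1, 2 and 3 Epcam gave 2.53, 1.64 and 3.40 and Krt19 gave 2.64, 2.98 and 3.74. Dmbt1 gave -4.36 and -4.71 on slides 1 and 3, and on slide 2 its tumor reading was not well above background. Cdh1 read higher in tumor on each of these slides, which follows from its groups not overlapping. Its normal readings were not well above background.

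Whether the YFP difference itself differed between tumor and normal pancreas was tested as an interaction. By limma 1 of 9 markers passed, Rab25, against 0.103% of all genes in either direction and 0.0371% in its direction. The YFP difference of Rab25 was 1.12 in tumor and -2.28 in normal pancreas, a difference of 3.40 ± 0.58 (SE, adjusted p = 0.0408). Its arrays did not overlap between the normal populations and overlapped between the tumor populations. The call was lost with slide as a block (adjusted p = 0.192) and with the replicate block (adjusted p = 0.113). It was also lost, with the difference between 2.96 and 3.73 and an adjusted p from 0.0505 to 0.101, in 14 of the 16 fits that left out 1 array, all but those without tumor YFP- array 23547 or 23677.

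For the keratins and Muc1 the interaction did not pass. Krt18 gave -1.53 ± 0.36 (adjusted p = 0.192), Krt19 -2.18 ± 0.68 (adjusted p = 0.481), Krt8 -2.17 ± 1.14 (adjusted p = 0.878), Muc1 -1.31 ± 0.41 (adjusted p = 0.491) and Dmbt1 -3.95 ± 1.28 (adjusted p = 0.524). At an unadjusted p below 0.05 there were 5 markers and 1450 of all genes. The lower keratins of tumor YFP+ cells were therefore not shown to be a difference of the tumor alone.

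The order of the 4 groups differed between markers. Krt7, Krt8, Krt18, Krt19 and Muc1 had their highest mean in tumor YFP- cells. For Krt7 no group differed beyond the spread from the next in order. For Krt8, Krt18 and Krt19 tumor YFP+ came next and normal YFP+ last, and Krt8 and Krt18 did not differ beyond their spread between tumor YFP+ and normal YFP- cells. Muc1 was lowest in tumor YFP+ cells (-1.87 ± 0.43 SD, n = 5), with normal YFP+ at -1.39 ± 0.33 (n = 3) and normal YFP- at -0.91 ± 0.59 (n = 3). Cdh1 and Epcam ran from tumor to normal, and within each tissue the populations did not differ beyond their spread. Dmbt1 ran the other way, from normal YFP- (2.79 ± 0.99, n = 3) through normal YFP+ (1.58 ± 0.66, n = 3) and tumor YFP- (-0.13 ± 0.88, n = 5) to tumor YFP+ (-5.29 ± 1.98, n = 5). Rab25 was highest in normal YFP- cells (-1.04 ± 0.39, n = 3), then in tumor YFP+ cells. Its lowest groups, normal YFP+ and tumor YFP-, did not differ beyond their spread.

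Over the 16 arrays the mean profile of the 9 markers, each centred on its own mean, was 0.995 to 1.53 on the tumor YFP- arrays, -0.82 to 0.17 on tumor YFP+, -0.61 to -0.08 on normal YFP- and -1.38 to -1.06 on normal YFP+ arrays. Among the markers Krt18 lay nearest to this mean, with a root-mean-square distance of 0.39 log2 units over the 16 arrays, then Muc1 (0.59) and Krt7 (0.92), and Dmbt1 lay farthest (3.40). Of the genes outside the markers the nearest were Wfdc2 (0.35), a secreted protease inhibitor gene of epithelia, and Cldn4 (0.43), a tight junction gene, followed by Phldb2, Mgll, Krt20, Krt13, Anxa8, Notch3, Lgals4 and Cldn6 (0.43 to 0.51). Nearest to Krt19 itself were Onecut2 (0.70), a liver and pancreas transcription factor gene, Msln (0.80), Tspan8 (0.83), Aldh1a3 (0.87) and Foxq1 (0.98). These distances describe likeness over arrays that share groups and slides.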

How the data were processed

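RNA of sorted macrophages was amplified, labelled with Cy5 and read on 16 Agilent 4x44K arrays (10 from tumor and 6 from normal pancreas, in equal parts YFP+ and YFP-). Per the file headers and the submitters' processing notes, Agilent Feature Extraction 11.5.1.1 gave intensity values of the red channel, background subtracted and spatially detrended, with flags (other) for spots well above background. The authors also deposited log2 values, whose sorted columns agree between arrays within 0.0069; the sources leave their normalization unstated.

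Here log2 processed signal minus the array's 75th percentile over non-control probes was used. Outlier spots were left out, and replicate spots were averaged per probe. A probe was kept when well above background on at least 3 of 16 arrays, counting a probe as such when at least a 0.5 share of its spots were (30566 probes; 254 of them had a missing value), and the brightest probe stood for a gene (24278 genes). Probes were named through RefSeq by accession (28330), symbol (2204) or synonym (174), and 8721 kept the file's name. The genes were fitted with limma 3.58.1 (R 4.3.3), lmFit and eBayes, two-sided, in 1 model of 4 group means, with p-values adjusted across the 24278 genes (Benjamini-Hochberg), and the scripts were tested on simulated data. A fold is given as "at least" where a group had no array above background, with that group set no lower than each array's lowest reading well above background.

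The members and the marker lists were chosen with earlier results of these data known. All 10 members are named; of each other list, up to 4 genes past the threshold with the largest differences, and, by root-mean-square distance of centred profiles, the 10 genes nearest the members' mean and the 5 nearest Krt19. Genes named as not passing, and the motifs, were chosen after their values were seen. Alternatives were normexp background correction (offset 50), quantile normalization, the deposited values, no filter or a filter at 8 arrays, the mean of probes, slide or title number as a block, only the groups compared, array weights, and leaving out each array. Some genes of the other lists are counted and not reported by name here. The second Krt8 probe was added after seeing the data.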

Additional observations from a re-analysis of the deposited data

Results flagged for a closer look

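Muc1 on the tumor YFP- array of title number 23547 stood apart from the other 4 arrays of its group: its log2 level was -0.55 beside -0.03 to 0.09, and the gap to the nearest array was 0.818 of the group's whole range. Of the 18 marker and group combinations of 5 arrays examined this was the 1 that stood apart, and chance gives about 1 in 20. Without that array the Muc1 log2 difference between the tumor populations was -1.91 (limma adjusted p = 0.00144).

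The YFP difference of Rab25 differed between tumor and normal pancreas in the interaction test (limma adjusted p = 0.0408). The call was lost with slide as a block (adjusted p = 0.192), with the replicate block (adjusted p = 0.113) and in 14 of the 16 fits that left out 1 array.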

How the results depend on the processing

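In tumor, 5 of 9 markers were past the threshold between YFP+ and YFP- cells in each of 21 alternatives (leave-one-out range 5 to 5), and no difference past the threshold changed sign in any comparison. Between tumor and normal the count was 4 to 6 in YFP+ and 6 to 8 in YFP- cells, each over 19 alternatives (leave-one-out 4 to 6 and 6 to 7). Between the normal populations it was 0 except with array weights, where it was 1 (Rab25, adjusted p = 0.0112), and 0 in each fit that left out an array. The interaction count of 1 became 0 with no filter on signal, with the filter at 8 arrays, with slide as a block and with the replicate block, became 2 with array weights, and ranged from 0 to 1 when an array was left out; the cause was not tested. Dmbt1 between tumor and normal YFP- cells lost its call with no filter (adjusted p = 0.0513).

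Whether a shared title number is a shared animal cannot be settled from correlations over so few arrays. For tumor numbers 23548, 23677, 23550, 23551 and 23547 the correlation of same-numbered deviations over genes was 0.224, -0.290, 0.0566, -0.188 and 0.314. The highest with another number was 0.480, 0.267, 0.0449, 0.375 and 0.460. For normal numbers 23916, 23912 and 23917 it was 0.135, 0.275 and -0.0156 with the same number. With another number the highest was 0.0686, -0.0427 and 0.247. With the replicate block 5 markers passed in tumor, 0 between the normal populations, 5 and 7 between tissues and 0 for the interaction.

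Over all genes, the count of calls ranged from 424 to 805 in tumor (main value 580), 0 to 1165 between the normal populations (5), 1957 to 4467 (2936) and 2267 to 9225 (3829) between tissues in YFP+ and YFP- cells, and 5 to 358 for the interaction (25). The highest of these came with array weights in all comparisons but the first. Signal over background limits Sox9, Cdh1 and Krt8 in normal pancreas and Dmbt1 in tumor YFP+ cells: with normexp the Cdh1 differences between tissues were 3.30 and 2.79 in place of 5.56 and 4.95. Rab25 was well above background on all 16 arrays but also depended on this correction. With normexp its YFP difference was 0.36 ± 0.20 (SE) in tumor and -1.55 ± 0.26 in normal pancreas, in place of 1.12 and -2.28. Its interaction difference ranged from 1.92 to 3.73 over 27 alternatives.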
